A study of Mus musculus with 4 samples.

Results

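Chemokine ligands are small secreted proteins that draw leukocytes towards the cells making them. They were taken here as every gene of the array's annotation whose symbol starts with Cxcl or Ccl followed by a digit, plus Cx3cl1 and Xcl1. By that rule 36 genes of 30675 named genes were found, each read by 1 probe set. They include Ccl19-ps1 and Cxcl11, which RefSeq lists as transcribed pseudogenes. A further 6 symbols (Ccl21a, Ccl21b, Ccl21c, Ccl21d, Ccl27b and Ccl19-ps3) occurred only on probe sets that list several genes and have no value of their own. Ccl19, Ccl19-ps1 and Ccl27a have near-identical copies in the mouse genome, so their signals are uncertain as those of single genes. The platelet chemokines Pf4 and Ppbp carry other names, lie outside the rule and are given only as neighbours.

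The series measured transcripts in whole trachea and whole oviduct on 4 Affymetrix arrays, 1 for each tissue and genotype. The trachea arrays held RNA of a wild-type (WT) and of a GEMC1 null male mouse of 39 days. The oviduct arrays held RNA of a WT and of a GEMC1 null female of 65 days. All 4 animals were of a mixed C57BL/6 x 129 background, the tissue was freshly isolated, and no treatment was given. Gemc1, now named Gmnc, is known as a regulator at the start of multiciliated cell differentiation, and the series' title asks for its part in that programme. Neither the deleted part of the gene nor the number of mice behind an RNA is stated in the labels. Tissue goes with sex and age in this design, so these cannot be told apart.

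Chemokines fall into classes named for the spacing of their first cysteines, and they act through receptors of the G-protein-coupled class on leukocytes. Lymphoid chemokines such as Ccl19 and Cxcl13 are made by stromal cells of lymph nodes and of lymphoid tissue under mucosae, where they place T cells and B cells. Epithelial chemokines such as Ccl20, Ccl28, Cxcl14, Cxcl16 and Cxcl17 are made at surfaces. Cxcl15, also called lungkine, is known as an epithelial chemokine of the mouse lung that attracts neutrophils.

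With 1 array per group, a difference between genotypes within a tissue, or between tissues within a genotype, has no replicate check, no error and no p-value, and that single array sets the precision. Only the effects shared across the 4 arrays, given last, carry an SE and a p-value. Levels are log2 RMA signals, where a step of 1 is a doubling, and a genotype difference is the level on the array labelled Gemc1-null less that on its tissue's WT array. To enter a comparison's counts a gene had to lie at or above the array median (5.91 to 6.00) on at least 1 of its 2 arrays. Among these passing genes, those that differed by 2-fold or more were counted. Background was read from 5222 negative-control probe sets, whose median was 5.98 on the WT trachea array and 5.74 to 5.79 on the others. Where the dimmer array lay below its own such median, the fold was computed from the median and is a lower bound, written as "at least". Counts of genes past 2-fold use the measured levels, and a count that is smaller on these bounds is given with both values. The negative controls have a long upper tail: their 95th percentile was 8.70 to 8.87, and only 6 members on the WT trachea array, 1 on each Gemc1-null array and 0 on the WT oviduct array exceeded it.

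The labels and dissections were checked first. The Gmnc probe set stood at 5.90 on the WT and 4.63 on the null array in trachea. Both lay below the negative-control medians of their arrays (5.98 and 5.74), so nothing could be read of the trachea labels. In oviduct it stood at 6.11 and 8.86, which goes against the label of the oviduct array unless the probes lie outside the deletion. The arrays are therefore called by their labels, and every direction below rests on them. The ciliated-cell list went with the labels: on the null arrays each of the 7 genes was past 2-fold and lower, in trachea (median -3.57, or -3.08 with levels below background set to the negative-control median) as in oviduct (median -4.05, or -3.67). Ovgp1, the oviductal glycoprotein, stood at 12.79 and 12.84 in oviduct and at 6.45 and 6.56 in trachea. The airway protein Bpifa1 stood at 12.99 on the WT trachea array but at 6.02 on the null trachea array, beside 4.93 and 4.68 in oviduct. The 2 trachea arrays also differed in genes of other tissues. On the WT and null arrays the squamous gene Tgm3 stood at 5.13 and 12.06, the skeletal muscle gene Myh1 at 5.52 and 12.42, and the adipocyte gene Ucp1 at 10.40 and 4.72. Whether the 2 trachea samples held the same tissues was not tested. The 2 trachea arrays correlated at r = 0.945 over probe sets and the 2 oviduct arrays at r = 0.979. These r describe single arrays and rest on all probe sets, controls included.

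**Figure D1:**
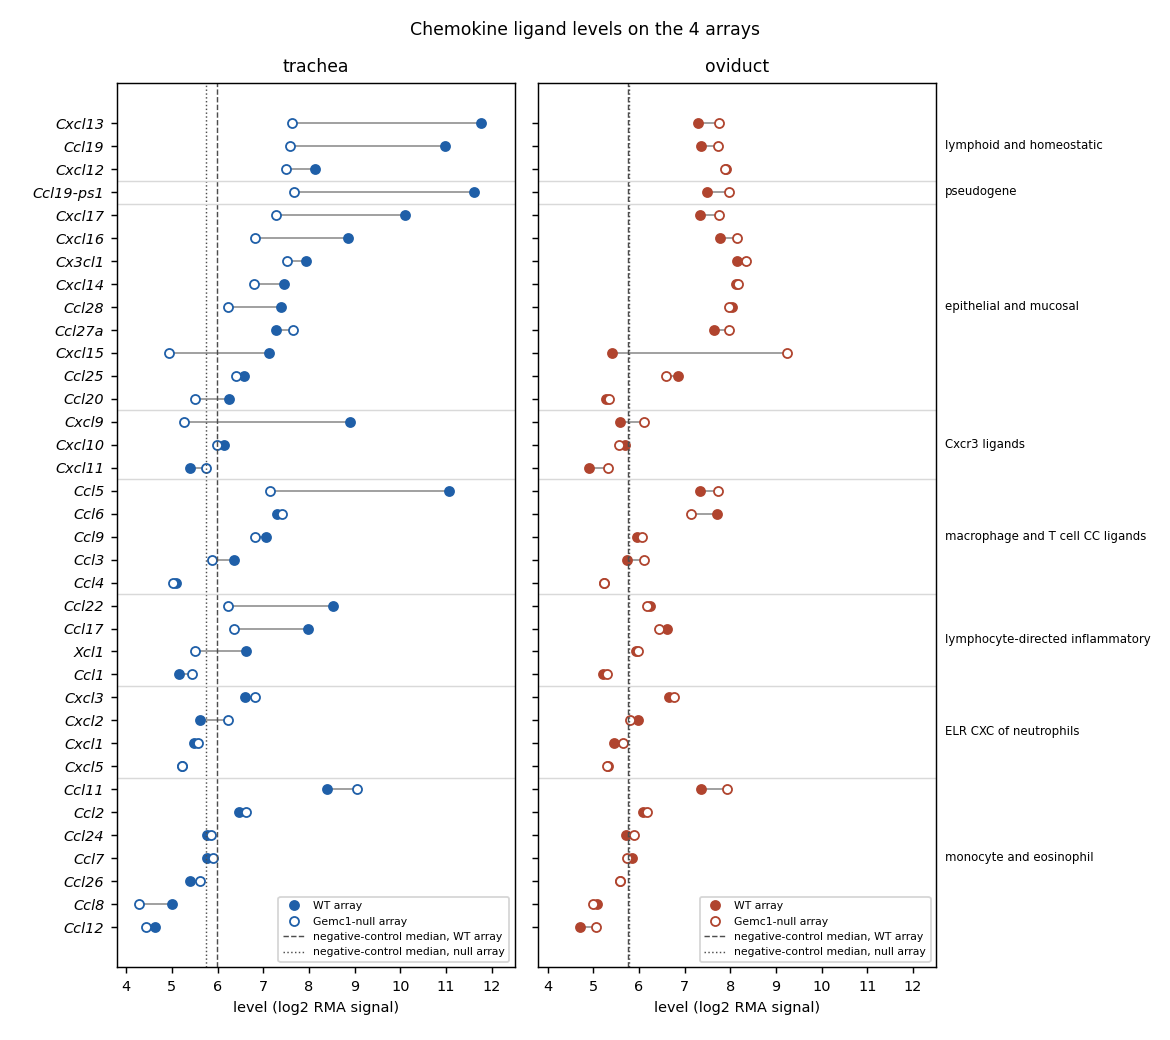
Level of each of the 36 chemokine ligand genes (rows, grouped by role) on the WT array (filled) and the array labelled Gemc1-null (open) in trachea and oviduct, as log2 RMA signal, with the negative-control median of each array as a vertical line. In trachea the open circles of Cxcl13, Ccl19, Cxcl17, Cxcl9 and Ccl5 lie far left of the filled ones. In oviduct only Cxcl15 has circles more than 1 unit apart.

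In trachea 12 of the 36 members were at least 2-fold lower on the null array, 11 of them by their bounds as well, and 0 were at least 2-fold higher. They were the lymphoid chemokines Cxcl13 and Ccl19, the pseudogene Ccl19-ps1, the T cell and interferon-linked chemokines Ccl5 and Cxcl9, the dendritic-cell chemokines Ccl22 and Ccl17, Xcl1, and the epithelial Cxcl15, Cxcl16, Cxcl17 and Ccl28. Among the 20142 passing genes as a whole, 7.74% were lower and 6.34% higher by that much. The level filter let 26 members through. The median difference over all 36 measured members was -0.34, with 24 below 0. Over all 30675 genes it was 0.06, with 12637 below 0. Because whole tissue was used, fewer cells of a type and less RNA per cell cannot be told apart in any of these differences.

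In oviduct 1 member, Cxcl15, was at least 2-fold higher on the null array and 0 were at least 2-fold lower. Of the members, 23 passed the filter there. Among the 19691 passing genes there, 0.807% were higher and 2.75% lower by that much. Ovary somatic genes on the same arrays were lower by 2-fold or more in 6 of 6 as measured (median -3.68) and in 5 by their bounds, since Fshr was at least 1.16-fold lower, and the part of ovarian tissue in the members' values was not tested. The median difference over the 36 members was 0.10, beside 0.05 over all genes. Below 0 lay 11 of the 36 members and 12186 of all 30675 genes. The other 35 lay between -0.57 (Ccl6) and 0.56 (Ccl11).

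**Figure D2:**
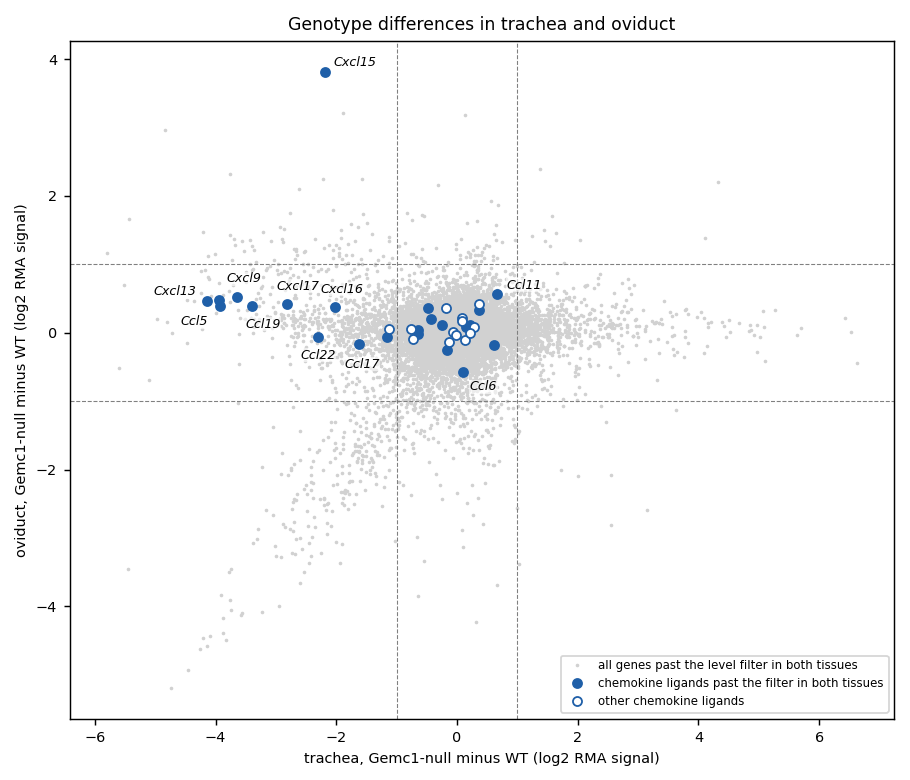
Difference of the array labelled Gemc1-null from the WT array in trachea (horizontal) and oviduct (vertical), in log2 RMA signal, with grey points for all 18862 genes that passed the level filter in both tissues, and filled and open blue points for chemokine ligands. Dashed lines mark 2-fold. Cxcl15 stands alone among the blue points, at -2.19 and 3.82. The other lower members of trachea lie between -0.17 (Ccl17) and 0.52 (Cxcl9) on the oviduct axis.

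Cxcl15 (NCBI gene 20309) was the only member past 2-fold in both tissues, and its directions were opposite. It read 7.12 (WT) and 4.93 (null) in trachea, and 5.41 (WT) and 9.23 (null) in oviduct. The levels of 4.93 and 5.41 lay below the negative-control medians of their arrays, so only the WT trachea and null oviduct arrays exceeded theirs. The WT trachea level still lay below the upper quartile of that array's negative controls (7.13), so the trachea difference is near the floor. The null oviduct level lay above the 95th percentile of its negative controls (8.74). The null array was at least 2.59-fold lower in trachea (-2.19) and at least 11.0-fold higher in oviduct (3.82). Of the 18862 genes that passed in both tissues, 72 were past 2-fold with the null array lower in trachea and higher in oviduct, and Cxcl15 was 1 of them. The difference between the tissues was not tested.

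Values of epithelial genes that differed on the same arrays stand beside these. In oviduct the general epithelium list had 0 of 6 genes past 2-fold (median 0.31), and the oviduct secretory list 0 of 4 (median 0.59), with Muc1 at 0.98. In the airway secretory list Agr2 (1.43) and Scgb3a1 (1.16) were at least 2-fold higher in oviduct, of 4 genes that passed and 8 measured. Of 5 lung alveolar genes, Sftpd, a surfactant protein, went from 7.24 to 8.24 in oviduct, while Sftpc went from 6.40 to 5.71. In trachea each of the 8 airway secretory genes was lower by 2-fold or more (median -5.31), as were 5 of 6 general epithelial genes (median -1.46). So was each of the 4 alveolar genes that passed, of 5 measured (median over the list -2.56). Whether Cxcl15 follows the share of such cells was not tested.

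Cxcl15 lies in a run of neutrophil-directed chemokine genes. In the RefSeq order of assembly GRCm38.p6 the run is Cxcl5, Ppbp, Pf4, Cxcl3, Cxcl15, Cxcl1 and Cxcl2, with no other gene between them. Cxcl1, Cxcl2, Cxcl3 and Cxcl5 bind Cxcr2 and recruit neutrophils in inflammation. In oviduct the flanking Cxcl3 and Cxcl1 differed by 0.11 and 0.21, Cxcl2 by -0.18 and Cxcl5 by -0.03. In trachea they differed by 0.21, 0.09, 0.62 and -0.01 in the same order. Of 6 genes of neutrophils, the cells these chemokines recruit, 3 passed in each tissue. In trachea 1 was past 2-fold and higher (S100a9, at least 3.77-fold) and 0 lower, while Ly6g differed by -0.62 and Csf3r by -0.40. In oviduct 1 was past 2-fold and lower (Mmp8, at least 3.08-fold) and 0 higher. Cxcl1 and Cxcl5 lay below the negative-control median on all 4 arrays, so nothing could be read of their change. Cxcl3 was above it on all 4, at 6.60 and 6.81 in trachea and 6.65 and 6.77 in oviduct. The platelet genes of the run were read too. Ppbp stood at 9.30 and 7.55 in trachea and at 6.09 and 6.31 in oviduct, and Pf4 at 7.39 and 7.60, and 6.48 and 6.62. Of 4 measured platelet and megakaryocyte genes Ppbp alone was past 2-fold, in trachea (-1.76).

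The sequences upstream of Cxcl15 and of its 3 nearest members of the run are shown because Cxcl3 and Cxcl2 were not past 2-fold in either tissue, while Cxcl1 was below background. Each is the 250 bases before the RefSeq transcription start, all on the plus strand of GRCm38.p6: chr5:90794284-90794533 for Cxcl15, chr5:90785851-90786100 for Cxcl3, chr5:90890995-90891244 for Cxcl1 and chr5:90903649-90903898 for Cxcl2. The sequences are RefSeq's. Capitals mark matches, on either strand, to a kappaB form (GGG, any 2 bases, TTTCC), to the TATA letters TATAAA, to an interferon-stimulated response element (ISRE; TTTC, any 2 bases, TTTC) or to a STAT site (GAS; TTC, any 3 bases, GAA). The TTTC of the ISRE form can lie within a kappaB match.
Cxcl15: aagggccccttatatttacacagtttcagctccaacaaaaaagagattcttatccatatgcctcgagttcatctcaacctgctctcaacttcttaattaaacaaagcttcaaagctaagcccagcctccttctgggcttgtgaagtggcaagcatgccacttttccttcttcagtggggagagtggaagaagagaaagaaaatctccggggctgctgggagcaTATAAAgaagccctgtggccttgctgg
Cxcl3: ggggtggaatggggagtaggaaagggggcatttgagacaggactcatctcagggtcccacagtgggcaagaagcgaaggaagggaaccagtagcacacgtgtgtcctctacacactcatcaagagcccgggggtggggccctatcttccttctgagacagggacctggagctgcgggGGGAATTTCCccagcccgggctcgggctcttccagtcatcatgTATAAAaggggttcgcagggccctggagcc
Cxcl1: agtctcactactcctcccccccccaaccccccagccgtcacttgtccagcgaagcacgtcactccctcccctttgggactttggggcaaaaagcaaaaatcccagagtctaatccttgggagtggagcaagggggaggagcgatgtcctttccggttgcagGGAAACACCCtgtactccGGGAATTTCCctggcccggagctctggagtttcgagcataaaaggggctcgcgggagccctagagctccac
Cxcl2: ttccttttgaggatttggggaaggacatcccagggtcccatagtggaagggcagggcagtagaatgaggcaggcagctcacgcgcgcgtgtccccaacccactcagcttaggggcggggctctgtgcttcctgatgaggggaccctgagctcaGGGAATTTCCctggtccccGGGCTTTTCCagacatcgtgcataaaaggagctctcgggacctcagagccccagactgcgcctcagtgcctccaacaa
The kappaB letters were found in Cxcl3, Cxcl1 and Cxcl2 and not in the window of Cxcl15, which holds TATAAA from 27 to 22 bases before its start. Among 32851 windows of the same length over all genes 1.41% held the kappaB letters and 12.4% TATAAA, beside 5 and 9 of the 27 windows of members. The other members with kappaB letters were Ccl20 and Ccl9. RefSeq windows were matched for 24 of 36 members. A match is a description of letters only, and the windows and motifs were chosen with the values known.

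**Figure D3:**
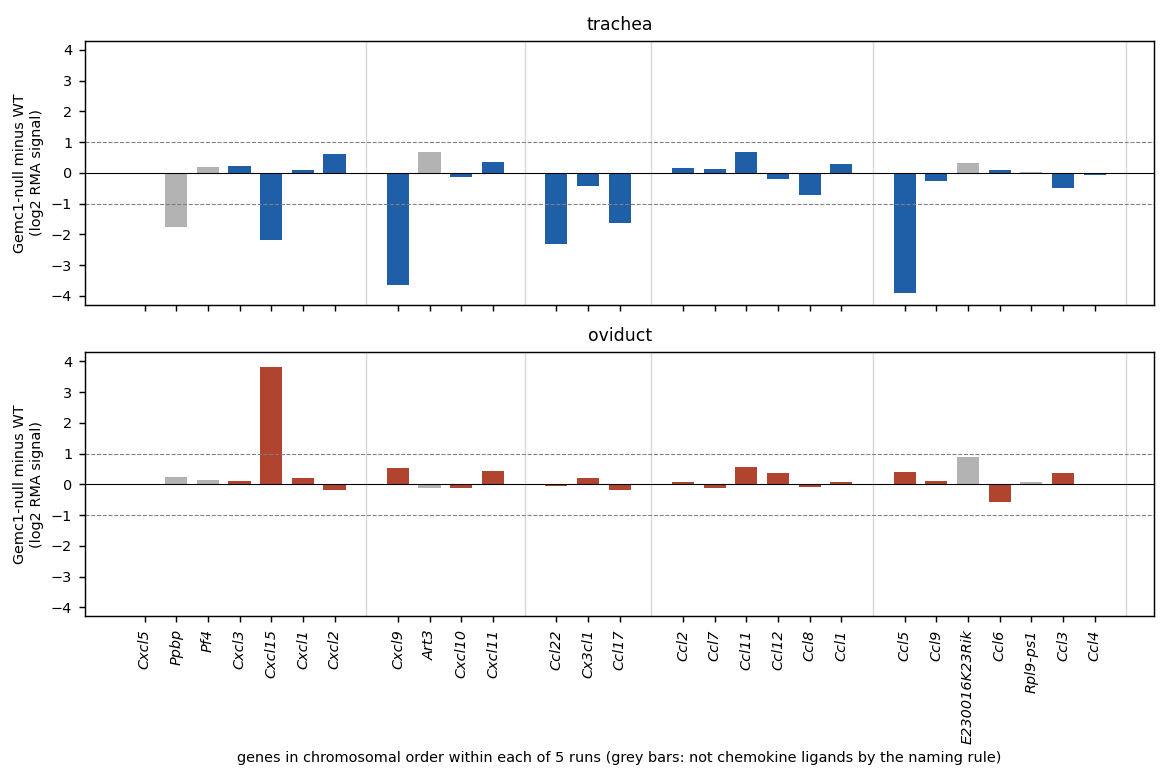
Difference of the array labelled Gemc1-null from the WT array (bar height, log2 RMA signal) for genes in chromosomal order within 5 runs that hold chemokine ligands, in trachea (top) and oviduct (bottom), with dashed lines at 2-fold. Cxcl15, Cxcl9 and Ccl5 stand out from the genes beside them, and the grey bars are genes outside the naming rule.

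Of the 3 lymphoid and homeostatic chemokines 2, Cxcl13 and Ccl19, were at least 2-fold lower in trachea, and Cxcl13 had the largest measured difference of all members. Cxcl13, which draws B cells into follicles through Cxcr5, stood at 11.76 on the WT and 7.62 on the null trachea array and at 7.30 and 7.76 in oviduct. The WT trachea array alone was high. The null trachea array was 17.6-fold lower (-4.14), number 44 from the lowest of 20142 genes, and the oviduct difference was 0.47. Ccl19, which guides T cells and dendritic cells through Ccr7, stood at 10.97, 7.57, 7.35 and 7.74 on the WT trachea, null trachea, WT oviduct and null oviduct arrays. It was 10.5-fold lower in trachea (-3.39) and differed by 0.39 in oviduct. The Ccl19-ps1 probe set stood at 11.61, 7.67, 7.49 and 7.97 in the same order. It may read Ccl19 transcripts or their copies, so it is no separate observation. Without it 11 of 35 members were at least 2-fold lower in trachea. Cxcl12, the widely expressed stromal ligand of Cxcr4, stood at 8.13 and 7.49 in trachea and 7.91 and 7.89 in oviduct, with no difference past 2-fold.

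The upstream windows of Cxcl13 (chr5:95956689-95956938, plus strand) and Ccl19 (chr4:42756366-42756615, minus strand) are given because both genes were bright on the WT trachea array alone. Capitals are as above.
Cxcl13: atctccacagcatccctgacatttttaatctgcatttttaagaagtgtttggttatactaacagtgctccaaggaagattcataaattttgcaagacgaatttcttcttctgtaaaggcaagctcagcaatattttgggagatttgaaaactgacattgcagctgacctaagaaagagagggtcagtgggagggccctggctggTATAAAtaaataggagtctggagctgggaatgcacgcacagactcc
Ccl19: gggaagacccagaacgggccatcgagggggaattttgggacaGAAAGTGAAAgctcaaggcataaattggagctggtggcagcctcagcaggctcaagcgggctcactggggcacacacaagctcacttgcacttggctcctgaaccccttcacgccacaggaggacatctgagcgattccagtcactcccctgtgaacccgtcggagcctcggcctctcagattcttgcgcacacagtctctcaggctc
Cxcl13 held TATAAA from 46 to 41 bases before its start, and Ccl19 held ISRE letters from 208 to 199 bases before it. ISRE letters occurred in 2.98% of all windows and in 3 of the 27 member windows, those of Ccl19, Cxcl10 and Cxcl14.

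Lymphocyte and lymphoid-stroma markers differed on the same trachea arrays. On the null array the 7 measured B cell genes were each lower by 2-fold or more (median -3.49, or -3.32 with levels set to background), and their median level went from 9.07 to 6.46, with Ms4a1 at 9.07 and 4.49. Of 7 measured T cell genes 6 were at least 2-fold lower (median -3.15, or -2.26 with levels set to background), and their median level went from 8.41 to 5.89, with Cd3e at 10.12 and 5.89. Cr2, a complement receptor of B cells and follicular dendritic cells, went from 8.67 to 4.61. Glycam1, a ligand of high endothelial venules, went from 10.79 to 5.84. Of the 6 genes of that list, follicular dendritic cells and lymphoid stroma, 3 were past 2-fold and lower (median -1.04) and 0 higher. Madcam1 (-0.99), Chst4 (-0.41) and Fut7 (-0.19), which also serve high endothelial venules or lymphocyte homing, were not past 2-fold. Ltb, which encodes lymphotoxin beta, an inducer of lymphoid chemokines, went from 8.82 to 6.74. In the list of lymphotoxin and non-canonical NF-kB genes 4 of 8 were at least 2-fold lower (median -1.01) and 0 higher. In oviduct none of the B cell, T cell and lymphotoxin genes was past 2-fold, and the median levels of the B cell and T cell lists were 6.37 and 5.82 on the WT array and 6.65 and 6.07 on the null array. On the null trachea array Ms4a1, Fcrla, Cd3g, Cd4 and Cr2 lay below the negative-control median. Lymphatic endothelial genes did not follow: 0 of 5 were at least 2-fold lower in trachea and 1, Mmrn1, was higher (at least 2.13-fold; median of the list 0.66). Of 5 blood endothelial genes 1, Pecam1 (-1.88), was at least 2-fold lower and 0 higher. The part of lymphoid tissue in the chemokine differences was not tested.

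Several other marker lists separated the 2 trachea arrays. Skeletal muscle genes were at least 2-fold higher on the null array in 6 of 6 (median 6.58) and squamous epithelium genes in 5 of 5 (median 6.43), as were basal epithelium genes in 3 of 4 (median 2.57), while adipocyte genes were lower in 5 of 5 (median -2.63) and smooth muscle genes in 3 of 4 (median -1.35). The part of these tissues in any member's difference was not tested.

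**Figure D4:**
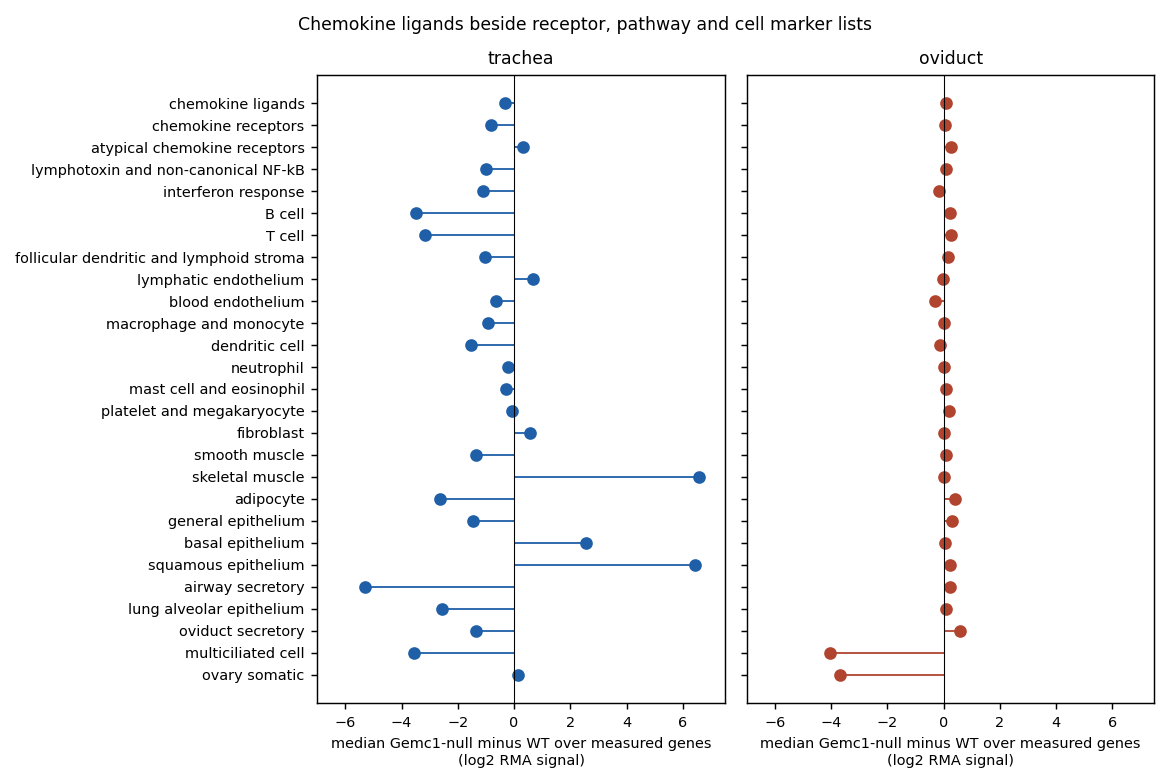
Median difference of the array labelled Gemc1-null from the WT array (points, log2 RMA signal) over all measured genes of each list, in trachea and oviduct, with chemokine ligands in the top row. In trachea the B cell (-3.49), T cell (-3.15) and airway secretory (-5.31) lists lie to the left and the skeletal muscle (6.58) and squamous (6.43) lists to the right. In oviduct the multiciliated (-4.05) and ovary somatic (-3.68) lists lie far left of the others.

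Among epithelial and mucosal chemokines 4 of 9 members were at least 2-fold lower in trachea and 8 of 9 lay below 0 (median -0.76). Of all 30675 genes 12637 lay below 0 there. Cxcl17, a mucosal chemokine of macrophages, stood at 10.10 on the WT and 7.29 on the null trachea array, 7.02-fold lower, and at 7.34 and 7.76 in oviduct. Cxcl16, a membrane-bound ligand of Cxcr6, stood at 8.85 and 6.83 in trachea, 4.06-fold lower, and at 7.77 and 8.15 in oviduct. Ccl28, which recruits antibody-secreting cells through Ccr10, stood at 7.38 and 6.22 in trachea, 2.23-fold lower, and at 8.04 and 7.97 in oviduct. With arrays centred on their negative controls, which moves every trachea difference by 0.24, Ccl28 came to -0.92, short of 2-fold. For Cxcl17 and Cxcl16 the WT trachea array was the highest of the 4, and for Ccl28 the null trachea array was the lowest.

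The other epithelial ligands had no trachea difference past 2-fold. Ccl20, the ligand of Ccr6, stood at 6.26 and 5.50 in trachea and at 5.29 and 5.34 in oviduct, above background on the WT trachea array alone. Cxcl14 stood at 7.46 and 6.81 in trachea and at 8.12 and 8.17 in oviduct. Cx3cl1, also called fractalkine, stood at 7.94 and 7.52, and at 8.15 and 8.35. Ccl27a, a skin-homing chemokine, stood at 7.28 and 7.65, and at 7.64 and 7.98, and Ccl25, the gut and thymus ligand of Ccr9, at 6.58 and 6.41, and 6.84 and 6.58. In oviduct 2 of the 9 epithelial members lay below 0, beside 12186 of all 30675 genes. The median over the 9 was 0.20, and all but Cxcl15 lay between -0.26 and 0.42.

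The ligands of Cxcr3, the receptor of effector T cells, separated from each other. Cxcl9 stood at 8.90 on the WT trachea array and at 5.26 on the null trachea array, below background there, which makes it at least 8.89-fold lower (-3.64). In oviduct it stood at 5.58 and 6.10. Its neighbour Cxcl10 stood at 6.14 and 6.00 in trachea and at 5.68 and 5.55 in oviduct. Cxcl11 stood at 5.40 and 5.76, and at 4.91 and 5.33. Only Cxcl9 therefore had a high array, the WT trachea one, while Cxcl10 and Cxcl11 lay above the negative-control median on 2 and 1 arrays. The upstream windows of Cxcl9 and Cxcl10 are set side by side because Cxcl9 was past 2-fold in trachea and Cxcl10 was not (-3.64 and -0.14). Both are on the minus strand, chr5:92328080-92328329 for Cxcl9 and chr5:92348890-92349139 for Cxcl10.
Cxcl9: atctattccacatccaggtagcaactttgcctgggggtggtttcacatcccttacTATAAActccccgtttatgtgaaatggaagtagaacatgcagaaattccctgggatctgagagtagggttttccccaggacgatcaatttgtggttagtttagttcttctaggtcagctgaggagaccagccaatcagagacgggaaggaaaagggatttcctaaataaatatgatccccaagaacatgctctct
Cxcl10: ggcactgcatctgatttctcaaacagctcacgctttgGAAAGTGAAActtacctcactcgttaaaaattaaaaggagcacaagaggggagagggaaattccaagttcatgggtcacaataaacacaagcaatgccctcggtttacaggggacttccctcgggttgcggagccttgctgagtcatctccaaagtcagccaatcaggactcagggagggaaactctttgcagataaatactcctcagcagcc
Cxcl10 held ISRE letters from 213 to 204 bases before its start, and the window of Cxcl9 held none. In a list of 8 interferon-response genes, of which 7 were measured, 5 were past 2-fold and lower in trachea (median over the 7 of -1.12), with Oas2 (-1.99), Irf1 (-1.74) and Irf7 (-1.16). In oviduct 1 of them, Oas2, was at least 2-fold lower (-1.11).

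Ccl5, an effector T cell product, stood at 11.07 on the WT trachea array and at 7.15, 7.34 and 7.74 on the null trachea, WT oviduct and null oviduct arrays. The null trachea array was 15.1-fold lower (-3.92). The macrophage-linked genes that follow it on the chromosome did not share this: Ccl9 stood at 7.06 and 6.81 in trachea, Ccl6 at 7.31 and 7.40, Ccl3 at 6.37 and 5.89, and Ccl4 at 5.08 and 5.02. In oviduct Ccl6 stood at 7.72 and 7.14, the lowest member difference there (-0.57). Ccl4 lay below background on all 4 arrays. Of 7 macrophage and monocyte genes 1, Lyz2 (-2.11), was at least 2-fold lower in trachea, with Adgre1 at 0.44, and 0 of 7 were past 2-fold in oviduct.

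Ccl22 and Ccl17 are dendritic-cell ligands of Ccr4 that stand in 1 chromosomal run on either side of Cx3cl1. Ccl22 stood at 8.53 and 6.23 in trachea, 4.92-fold lower, and at 6.24 and 6.18 in oviduct. Ccl17 stood at 7.99 and 6.36 in trachea, 3.09-fold lower, and at 6.60 and 6.43 in oviduct. For both, the WT trachea array alone was high, whereas Cx3cl1 between them differed by -0.42 in trachea. In trachea 3 of 5 dendritic cell genes were lower by 2-fold or more, Clec9a (at least 3.85-fold), Flt3 (-2.17) and Itgax (-1.52), and 0 in oviduct. Xcl1, a product of cytotoxic lymphocytes for dendritic cells, stood at 6.63 and 5.50 in trachea, a difference of -1.13. The null level was below background, so the bound was at least 1.85-fold, short of 2-fold. It stood at 5.93 and 5.98 in oviduct. Ccl1 lay below background on all 4 arrays.

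The monocyte and eosinophil chemokines were the group with no member at least 2-fold lower in either tissue besides the neutrophil ligands. Ccl11, eotaxin, a fibroblast and smooth muscle product that draws eosinophils, stood at 8.39 and 9.06 in trachea and at 7.36 and 7.92 in oviduct. It was the highest member difference in trachea (0.67), and the null array was 1.47-fold higher in oviduct (0.56). Fibroblast genes on the same arrays had a median difference of 0.58 in trachea, with Lum (1.02) at least 2-fold higher, and of 0.02 in oviduct. Of 6 mast cell and eosinophil genes 3 passed the filter in trachea and 4 in oviduct, and 0 of these were past 2-fold. Cpa3 (-1.11 in trachea) did not pass there, with both levels below background. Ccl2 stood at 6.47 and 6.62 in trachea and at 6.10 and 6.18 in oviduct. Ccl8, Ccl12 and Ccl26 lay below background on all 4 arrays, and Ccl7 and Ccl24 were above it on 2 arrays each, between 5.72 and 5.91.

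Receptors and ligands can be set side by side, since several receptor genes mark the cells that answer. In trachea 7 of 18 measured chemokine receptor genes were at least 2-fold lower as measured, 6 of them by their bounds as well, and 0 were higher (median over the 18 -0.83, or -0.44 with levels set to background), and in oviduct 0 were past 2-fold (median 0.07). Cxcr4 went from 10.27 to 6.66 (-3.61), while its ligand Cxcl12 differed by -0.64. Ccr7 went from 10.45 to 8.06 (-2.39) and Cxcr5 from 8.14 to 5.90 (-2.24), beside the lower Ccl19 and Cxcl13. Ccr6, Ccr8 and Ccr9 lay below background on the null trachea array. They were lower by at least 4.69-fold, at least 2.43-fold and at least 1.95-fold, the last short of 2-fold. Of their ligands, Ccl20 and Ccl25 had no difference past 2-fold, with Ccl20 below background on the null trachea array. The Ccr8 ligand Ccl1 lay below background on all 4 arrays, so nothing could be read of its change. Cxcr2 differed by -1.25. Cxcr3, Cxcr6 and Ccr10, the receptors for Cxcl9, Cxcl16 and Ccl28, differed by -0.46, -0.94 and -0.07, all short of 2-fold. Cxcr6 stood at 6.06 and 5.13 in trachea, below background on the null array, so its difference depends on background. Ccr4 and Xcr1 lay below background on all 4 arrays. The 4 atypical receptors, which take up chemokines without moving cells, had 0 past 2-fold in trachea (0.06 to 0.69) and 0 in oviduct.

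Of the cytokines known to induce chemokines, 7 of 10 did not pass the filter in either tissue, among them Ifng, Il1b and Il6. Tnf stood at 7.12 and 6.26 in trachea and at 5.92 and 6.22 in oviduct. Il33, an epithelial alarm cytokine, stood at 7.25 and 7.61 in trachea and at 6.48 and 7.32 in oviduct. None of the 10 was past 2-fold in either tissue.

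Tissues were also compared within a genotype. Of 26 passing members, 12 were at least 2-fold higher on the WT trachea than on the WT oviduct array and 0 were lower. Of the 19959 passing genes 6.53% were higher and 4.66% lower by that much. The largest differences among members were those of Cxcl13 (22.0-fold), Ccl19-ps1 (17.4-fold), Ccl5 (13.2-fold), Ccl19 (12.3-fold) and Cxcl9 (at least 8.73-fold). Centring on negative controls moves these differences by -0.21 and leaves 9 of the 12. Between the null arrays 1 of 24 passing members, Ccl11 (1.14), was at least 2-fold higher in trachea and 4 were lower. Of the 20076 passing genes 6.83% were higher and 6.11% lower by that much. The 4 lower members were Cxcl15 (at least 11.2-fold lower), Ccl28 (-1.75), Cxcl14 (-1.36) and Cxcl16 (-1.32). The comparison of WT tissues and that of trachea genotypes share the WT trachea array, so the members high on that array enter both.

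A limma fit over the 4 arrays, with genotype and tissue as additive effects, asked what was shared by both tissues or both genotypes. It had 1 residual degree of freedom and a prior of 1.77, and tested 20971 genes, 26 of them members. For genotype, limma's Benjamini-Hochberg adjustment over all genes called 0 genes lower and 0 higher (0% each), members included. Without adjustment, 567 genes were lower and 168 higher at p under 0.05, among them 0 members lower and 1 higher. That member was Ccl11, with a shared difference of 0.61 (SE 0.151) and a limma adjusted p of 0.828. It was higher on the null array in 2 of 2 tissues, but a choice by this p-value favours tissues that agree. For Cxcl15 the shared difference was 0.81 (SE 1.81), with an adjusted p of 0.914 in limma, and its tissues went opposite ways.

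For tissue the same fit called 0 genes at an adjusted 0.05 in either direction (0% each), and 1559 lower and 804 higher in trachea at an unadjusted p under 0.05. Of the members 2 were higher in trachea at that level, Ccl11 (1.08, SE 0.151) and Ccl9 (0.92, SE 0.184), and 2 lower, Cxcl14 (-1.02, SE 0.256) and Ccl28 (-1.21, SE 0.360). Their limma adjusted p-values ran from 0.337 for Ccl11 to 0.443 for Ccl28. At that unadjusted level stood 4 of 26 members, beside 2363 of all 20971 genes. Each of the 4 kept its direction in 2 of 2 genotypes, but a choice by this p-value favours genotypes that agree. A p-value that misses the threshold here does not show that the levels were alike, since the residual is only the disagreement between the tissues.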

How the data were processed

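RNA from 4 freshly dissected mouse tissues was hybridised to 1-colour Affymetrix arrays. Per the submitters' processing notes the authors used RMA. No source used here gives its version or a build. The deposited values were read as log2 RMA signals logged once more: raising 2 to them gave decimals of 6 significant digits in 100% of cells (relative tolerance 1e-09), against 0.0805% when 10 was raised to them. The levels printed are these powers of 2. Of 72688 probe sets 31223 listed 1 gene and 1527 several or none resolved, and symbols were updated through RefSeq GRCm38.p6. A gene with several probe sets was represented by its brightest on average. Fold counts used the array median (percentile 50) as level filter. The shared effects were fitted in limma 3.58.1 (R 4.3.3) with Benjamini-Hochberg adjustment at 0.05. The fit was tested on simulated data, and figures were drawn in matplotlib 3.10.9.

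The members and gene lists were chosen with earlier results of these data known. All members were named, and of each other list the counts and up to 3 genes with the largest differences, and receptors past 2-fold; further genes were chosen after their values were seen. Alternatives were other fold limits, no level filter, the dimmer probe set, centring on negative controls and, in limma, an intensity trend or no block. Depth does not apply to arrays. Proteins were not used here.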

Additional observations from a re-analysis of the deposited data

Results flagged for a closer look

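Cxcl15 had opposite genotype differences in the 2 tissues: the array labelled Gemc1-null differed by -2.19 in trachea and by 3.82 in oviduct. With 1 array per group the difference between the tissues was not tested. On the null trachea and WT oviduct arrays the gene was below the negative-control median, so both values depend on background. Its WT trachea level of 7.12 lay below the upper quartile of that array's negative controls (7.13). The oviduct array labelled Gemc1-null, on which Cxcl15 was high, is also the array on which Gmnc stood at 8.86. On that array each of the 7 ciliated-cell genes was lower by 2-fold or more (median -4.05, or -3.67 with levels set to background).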

How the results depend on the processing

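Counts of members kept to within 1.5 times the reported one under 66 of 72 recomputations. Part of these could not differ. Each member has 1 probe set, so taking the dimmer one repeats the reported value. Centring moves levels and array medians together, so it cannot change the counts of members at or above an array median. The exceptions were all changes of the fold limit. At 1.5-fold 2 members were higher in trachea on the null array (0 at 2-fold), 2 were lower on the WT trachea than the WT oviduct array (0), and between null arrays 7 were lower (4) and 2 higher (1) in trachea. At 3-fold the latter counts were 2 and 0. The 12 members lower in trachea came to 15 at 1.5-fold, 10 at 3-fold, 12 without the level filter, 10 with arrays centred on negative controls, and 11 with levels below the negative-control median set to it or without Ccl19-ps1, alternatives chosen after seeing the data. Centring left out Ccl28 (-0.92) and Xcl1 (-0.89). The count of members higher in oviduct was 1 under each of these settings. Between WT tissues centring took 12 to 9, without Ccl9, Ccl11 and Cxcl16. Of 90 recomputed differences of single members 0 reversed and 6 were no longer past 2-fold. Those with the dimmer probe set were identical by design, and setting low levels to background leaves members above it unchanged. The 0 was therefore largely fixed in advance. In limma 0 members were called under each alternative, and 2 genes over all were called for tissue without the genotype block. With levels below the negative-control median set to it, the receptors lower in trachea came to 6 and the ovary somatic genes lower in oviduct to 5. No paired analysis was possible because each group had 1 array and no replicate number to pair, beyond the limma fit, which has tissue as a block for genotype. No fit without 1 array was possible, since it leaves no residual degree of freedom.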

Other observations

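The oviduct differences of the 5 members at or above 10 on the WT trachea array and at least 4-fold lower on the null one (Cxcl13, Ccl19, Ccl19-ps1, Ccl5 and Cxcl17) ran from 0.39 to 0.48. Another 62 genes met the same limits. Their oviduct differences had a median of 0.17, with quartiles of -0.07 and 0.49 and a range from -4.93 to 1.34. The limits of 10 and of 4-fold were chosen after the values were seen.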
